A study of Mus musculus with 24 samples.

Results

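The 4 mouse receptors for the Fc part of IgG (Fcgr1, Fcgr2b, Fcgr3 and Fcgr4) and their relative Fcrl6 were followed across genotype and state in NK cells. These 5 genes were taken by name from 38215 genes in the deposited table, because they are encoded near Fcer1g or rely on its product, FcRγ. All 5 were found, each as 1 row. The study asked how FcRγ shapes gene expression in NK cells. RNA was measured by bulk RNA sequencing in 24 mouse libraries, 4 in each of 6 groups. WT and KO cells (KO for FcRγ) each came from 3 states: the spleen without treatment (naive), the spleen after IL-15 treatment, and lung bearing a tumour. The genotype label says WT or KO only, and the lung libraries carry the treatment label naive. The sources used here do not give the allele, the strain, age or sex of the mice, the kind of tumour, or the route and dose of IL-15. Libraries of 1 group are biological replicates by their label, whose separate animals are not named, and p-values measure the spread between them. Levels are in CPM, counts scaled to the library total after TMM correction, and changes are log2 ± standard error from edgeR with Benjamini-Hochberg adjustment over all genes tested, called at an adjusted p under 0.05.

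Receptors for IgG read antibody bound to a target. Fcgr3 (CD16 in the mouse) is the activating receptor with which NK cells carry out antibody-dependent killing, and it reaches the surface and signals with FcRγ, whose ITAM is phosphorylated by Src family kinases and recruits Syk or ZAP-70. Fcgr1, the high-affinity receptor, and Fcgr4 also pair with FcRγ and are best known on monocytes, macrophages and, for Fcgr4, neutrophils. Fcgr2b carries its own inhibitory motif (ITIM), recruits the phosphatase SHIP1 and needs no FcRγ. It is classically a receptor of B cells and myeloid cells. Fcrl6 belongs to the Fc receptor-like family, and its human counterpart FCRL6 is found on cytotoxic lymphocytes.

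In GRCm38, the build of the deposited coordinates, 4 of the genes lie on chromosome 1 with Fcer1g (chr1:171229572-171234365). Fcgr2b (ENSMUSG00000026656, chr1:170960558-170976547, minus strand) lies 253.0 kb from Fcer1g, counted as the gap between the nearest ends of both genes. Fcgr4 (ENSMUSG00000059089, chr1:171018920-171029761, plus strand) lies 199.8 kb away by the same measure, Fcgr3 (ENSMUSG00000059498, chr1:171051174-171064935, minus strand) 164.6 kb away and Fcrl6 (ENSMUSG00000070504, chr1:172596640-172602551, minus strand) 1.36 Mb away. Fcgr1 (ENSMUSG00000015947, chr3:96282909-96293969, minus strand) lies on another chromosome.

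Fcgr2b and Fcgr3 are close copies over the part that binds IgG, and this bears on how reads were split between them. Their coding sequences were identical at 81.1% of 794 aligned bases, against 55.3 to 61.1% for every other pair of the 4 IgG receptors. Of all 50-base windows of the Fcgr3 transcript, 12.8% also occurred in Fcgr2b, falling to 7.38% at 75 bases and 3.53% at 100 bases. Of those of the Fcgr2b transcript, 4.75% occurred in Fcgr3 at 50 bases, while 11.4% occurred in some other gene, Fcgr3 included. At 100 bases these shares were 1.28 and 3.54%. The longest coding run that both share, read from GENCODE M21 transcripts and spliced over introns, spans chr1:170966674-170968081 in Fcgr2b and chr1:171054167-171057792 in Fcgr3 (GRCm38, both on the minus strand). It is shown because reads inside it cannot be placed in one gene by sequence alone, and it is 129 bases long.
Shared run: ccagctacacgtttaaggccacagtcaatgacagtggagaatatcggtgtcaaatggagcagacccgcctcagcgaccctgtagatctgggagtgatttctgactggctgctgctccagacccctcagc
The ends of the coding sequences differ. The last 120 coding bases before the stop codon are shown because they hold what sets the receptors apart: capitals mark the codons of the ITIM, found by a script in Fcgr2b (spliced, chr1:170961017-170961231) and absent from the same stretch of Fcgr3 (chr1:171051671-171051790).
Fcgr2b: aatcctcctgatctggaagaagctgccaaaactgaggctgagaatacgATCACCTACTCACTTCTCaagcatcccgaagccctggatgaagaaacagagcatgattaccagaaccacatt
Fcgr3: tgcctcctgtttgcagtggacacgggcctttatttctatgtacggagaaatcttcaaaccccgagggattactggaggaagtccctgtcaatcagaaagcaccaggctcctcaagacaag
The longest run of either tail found in the coding sequence of the other gene was 8 bases for Fcgr2b and 9 for Fcgr3. The expected counts of Fcgr2b and Fcgr3 were fractional in all 24 libraries, while those of Fcgr1, Fcgr4 and Fcrl6 were whole in all 24 (within 0.001). The sum of Fcgr2b and Fcgr3, which no split between them can move, is therefore given beside their own values. Reads that Fcgr2b shares with genes other than Fcgr3 can still move this sum.

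Fcer1g itself stood at 0.517, 2.06 and 2.40% of the WT mean in naive, IL-15 and lung KO, and no KO library reached a WT library. Library totals ranged from 9.68 to 32.1 M counts. KO naive replicate 1 (9.68 M) and WT lung replicate 1 (9.77 M) were the shallow ones, and the others held at least 21.18 M. All 10 NK cell markers averaged at least 1 CPM in every group, and their summed CPM ran from 8128 to 23920. Summed T cell markers (10 genes) ran from 58.7 to 133 CPM, dendritic cell markers (10 genes) from 401 to 955 CPM, of which Itgax, also expressed by NK cells, made the larger share of the mean sum in every group, and neutrophil markers (10 genes) from 0 to 45.3 CPM.

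Fcgr2b, the inhibitory receptor, lost most of its transcript in KO cells of naive spleen and of tumour-bearing lung, but not in IL-15-treated cells. In naive spleen the 4 WT libraries held 26.9, 27.5, 29.2 and 31.6 CPM and the 4 KO libraries 5.88, 4.81, 7.84 and 4.48 CPM. The groups lay far apart, with means in a ratio of 5.01. In lung the WT libraries held 51.5, 69.6, 60.3 and 73.0 CPM and the KO libraries 6.31, 5.47, 5.13 and 5.37 CPM, a ratio of means of 11.4. Under IL-15 the order turned: WT libraries held 5.30, 1.87, 3.60 and 4.59 CPM and KO libraries 7.32, 8.61, 8.62 and 10.03 CPM, again without overlap. In bulk RNA, fewer cells that express a gene and less RNA per cell cannot be told apart.

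**Figure D1:**
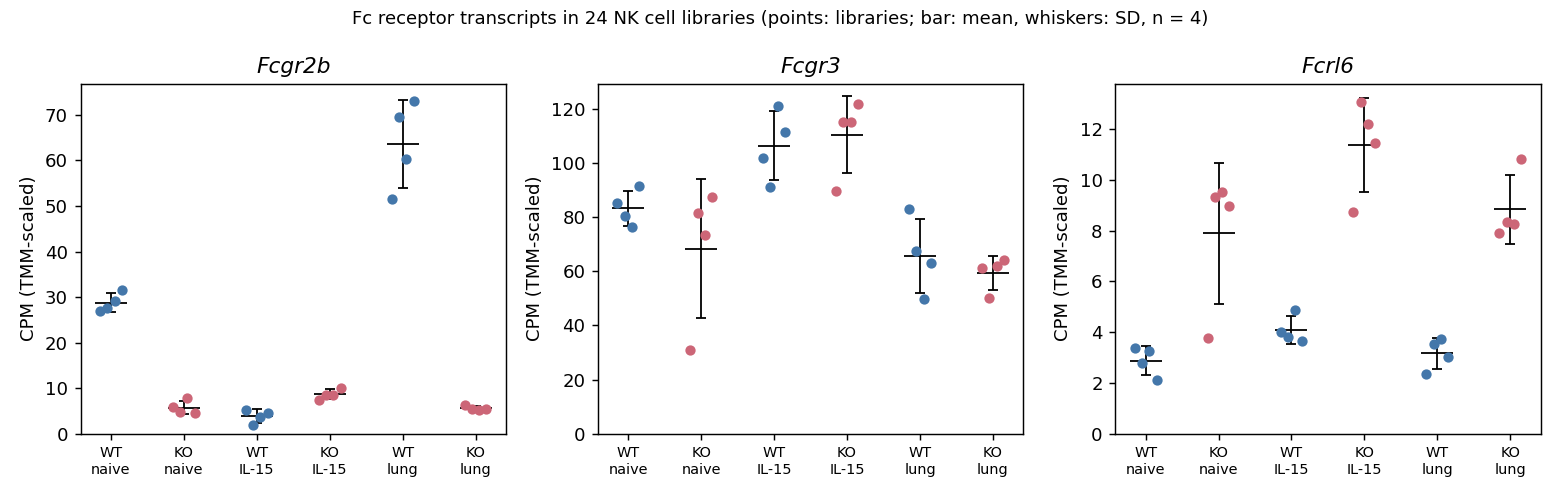
CPM (linear axis from 0) of Fcgr2b, Fcgr3 and Fcrl6 in the 24 libraries by group, with WT in blue and KO in red; points are libraries, bars the mean and whiskers the SD (n = 4). Fcgr2b is at 26.9 CPM or above in the naive and lung WT groups and at 10.03 CPM or below in all others, Fcgr3 overlaps between genotypes in each state, and Fcrl6 is higher in KO in each state.

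The KO effect on Fcgr2b was −2.35 ± 0.25 in naive spleen (adjusted p = 1.62e-05) and −3.51 ± 0.15 in lung (adjusted p = 7.7e-08). Under IL-15 it was 1.15 ± 0.25, with an unadjusted p of 1.78e-04 and an adjusted p of 0.104, so it did not pass. DESeq2 (1.16, adjusted p = 0.00269), limma voom with library weights (0.97, adjusted p = 0.00271) and an edgeR fit over all 24 libraries (1.16, adjusted p = 0.0102) did call it. For comparison, 20.3% of 13344 genes were called in naive KO (9.22% lower), 0.135% of 13344 in IL-15 KO (0.0525% lower) and 0.625% of 13129 in lung KO (0.320% lower). WT and KO libraries did not overlap for 20.3% of tested genes among naive libraries, 8.77% among lung and 3.07% among IL-15 libraries.

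The KO effect itself differed between states. From naive to IL-15 it moved by 3.50 ± 0.35 (adjusted p = 9.91e-05), and from IL-15 to lung by −4.67 ± 0.31 (adjusted p = 6.25e-10). From naive to lung it moved by −1.19 ± 0.30 (adjusted p = 0.0467). That last call was kept when WT naive replicate 4, KO naive replicate 4 or WT lung replicate 1 was left out and ended when any other of the 16 libraries was, with adjusted p values of 0.0195 to 0.099. Such differences were called for 1.54, 0.0911 and 1.15% of genes for the 3 contrasts in that order. They share the same libraries and are not independent of each other.

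**Figure D2:**
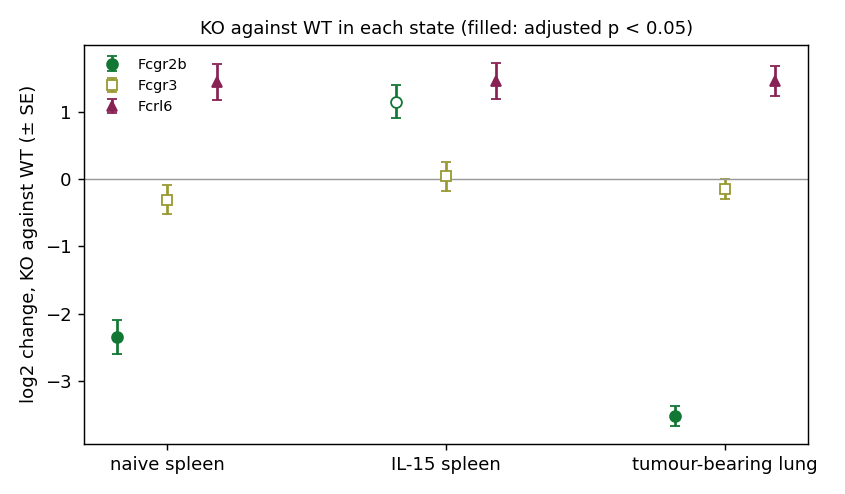
Log2 change of KO against WT (± SE, edgeR) for Fcgr2b, Fcgr3 and Fcrl6 in the 3 states; filled symbols passed an adjusted p of 0.05. Fcgr2b runs from −3.51 in lung to 1.15 under IL-15, Fcgr3 stays between −0.30 and 0.04, and Fcrl6 sits between 1.45 and 1.46.

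Along the 3 states, Fcgr2b varied widely in WT cells and little in KO cells. Among the 12 WT libraries Fcgr2b ran from 1.87 to 73.0 CPM, and the highest group mean was 16.6 times the lowest. Among the 12 KO libraries it ran from 4.48 to 10.03 CPM, with group means within a ratio of 1.55. In WT cells, Fcgr2b fell under IL-15 (−2.98 ± 0.26, adjusted p = 2.33e-08), and lung stood above naive spleen by 1.14 ± 0.20 (adjusted p = 4.7e-05) and above IL-15 spleen by 4.04 ± 0.23 (adjusted p = 2.21e-13). In KO cells the change from naive to IL-15 was 0.52 ± 0.25 (adjusted p = 0.0993) and from naive spleen to lung −0.04 ± 0.22 (adjusted p = 0.896), neither of which passed. Lung KO stood below IL-15 KO (−0.63 ± 0.21, adjusted p = 0.0173), a call that ended without KO IL-15 replicate 4 (−0.56, adjusted p = 0.0569). These shifts have many companions: IL-15 against naive called 52.4% of tested genes in WT and 41.7% in KO, lung against naive spleen 49.2 and 42.4%, and lung against IL-15 spleen 44.3 and 43.8%. In order of group mean, Fcgr2b rose from WT IL-15 (3.84 ± 1.49 CPM, mean ± SD, n = 4) through KO lung (5.57 ± 0.51), KO naive (5.75 ± 1.51) and KO IL-15 (8.64 ± 1.11) to WT naive (28.8 ± 2.11) and WT lung (63.6 ± 9.70). Each neighbouring pair of the lower 4 overlapped in range, and WT naive and WT lung each stood clear of the group below.

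B cells, myeloid cells and mast cells can carry Fcgr2b, and the levels of their markers are given here for the groups in which it fell. Summed B cell markers (9 of 10 listed genes found) ran from 3.72 to 5.44 CPM in naive WT and 2.42 to 19.3 CPM in naive KO, the highest being KO naive replicate 1. Lung libraries held 6.77 to 12.7 CPM of them in WT and 8.90 to 30.3 CPM in KO. Macrophage and monocyte markers (15 genes) ran from 7.08 to 11.1 CPM in naive WT, 8.77 to 18.7 CPM in naive KO, 81.8 to 182 CPM in lung WT and 202 to 796 CPM in lung KO. Every lung KO library held a larger sum of these myeloid markers than any lung WT library. Lyz2 alone averaged 94.9 CPM of the sum in lung WT and 313 CPM in lung KO. Among single markers, Lyz2, Cd14, Cd68 and Chil3 did not overlap between lung WT and KO, while others, such as Csf1r, C1qa, C1qc, Mrc1 and Marco, did. Mast cell and basophil markers (8 genes) ran from 239 to 280 CPM in naive WT, 218 to 318 CPM in naive KO, 241 to 501 CPM in lung WT and 225 to 303 CPM in lung KO. Cma1 alone averaged 256, 255, 344 and 264 CPM of these sums. The rarer genes of the list were lower in naive KO: Fcer1a and Ms4a2, which encode chains of the IgE receptor, averaged 0.465 and 0.337 CPM in naive WT and were at 0 in all naive KO libraries, Mcpt8 averaged 0.918 and 0.0192 CPM, Hdc 1.14 and 0.119 CPM and Gata2 1.496 and 0.481 CPM. Fcer1a and Ms4a2 were at 0 in all lung libraries. In IL-15 WT, where Fcgr2b was also low, B cell markers ran from 0.877 to 5.03 CPM, with a lower mean than in naive WT. Mast cell and basophil markers ran from 6.83 to 12.8 CPM there, and Cma1 averaged 5.22 CPM against 256 CPM in naive WT. Cpa3 and Mcpt8 were higher in IL-15 WT (2.245 and 0.9998 CPM against 0.496 and 0.918), while Fcer1a, Ms4a2, Hdc and Gata2 were lower. Summed myeloid markers ran from 18.4 to 23.6 CPM, above naive WT, of which Cd68 averaged 20.1 CPM against 4.92 CPM. Cd14 and Ms4a7 were also higher, but Lyz2 (0.0261 against 3.53 CPM) and all others above 0 in naive WT were lower. The part of these cell types in the level of Fcgr2b was not tested.

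Fcgr3, the activating receptor that is the known partner of FcRγ in NK cells, was not called between genotypes in any state. Naive WT libraries held 85.1, 80.3, 76.4 and 91.3 CPM and naive KO libraries 30.8, 81.6, 73.4 and 87.5 CPM. The low value belongs to KO naive replicate 1, the shallow library, and the other 3 KO libraries lay within or just below the WT range. The KO effect was −0.30 ± 0.21 (adjusted p = 0.342), and −0.06 without that library. Under IL-15, WT libraries held 102, 91.1, 121 and 111 CPM and KO libraries 89.7, 115, 115 and 122 CPM. In lung they held 82.8, 67.4, 49.7 and 63.0 CPM in WT and 61.2, 50.3, 61.9 and 64.1 CPM in KO. The groups overlapped in both states, and the KO effects were 0.04 ± 0.21 (adjusted p = 1.0) and −0.14 ± 0.15 (adjusted p = 0.744). The differences of the KO effect between states were 0.35 (IL-15 minus naive), 0.14 (lung minus naive) and −0.20 (lung minus IL-15), with adjusted p values of 0.614, 0.886 and 1.0.

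Across states the group means of Fcgr3 were highest under IL-15. Lung stood below IL-15 spleen, with changes of −0.70 ± 0.20 in WT (adjusted p = 0.00676) and −0.89 ± 0.20 in KO (adjusted p = 8.2e-04). IL-15 against naive was 0.27 ± 0.21 in WT (adjusted p = 0.314) and 0.61 ± 0.21 in KO (adjusted p = 0.0285). The KO call ended without KO IL-15 replicate 2 (0.59), replicate 3 (0.60) or replicate 4 (0.56), with adjusted p values up to 0.0698. Without KO naive replicate 1 it was 0.37. Lung against naive spleen was −0.34 ± 0.20 in WT (adjusted p = 0.164) and −0.21 ± 0.20 in KO (adjusted p = 0.43). Without KO naive replicate 1 the KO change was −0.44 and passed (adjusted p = 0.0132). In order of group mean Fcgr3 rose from KO lung (59.4 ± 6.20 CPM) over WT lung (65.8 ± 13.6), KO naive (68.3 ± 25.7), WT naive (83.3 ± 6.42) and WT IL-15 (106 ± 12.8) to KO IL-15 (110 ± 14.1), and each neighbouring pair overlapped.

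Among the counts of the 2 related receptors, the share of the inhibitory one therefore differed between WT and KO in each state. Its KO means lay close together, at 9.04% in naive, 7.27% in IL-15 and 8.65% in lung cells. Fcgr2b made 24.0, 25.5, 27.7 and 25.7% of Fcgr2b plus Fcgr3 counts in naive WT and 16.1, 5.59, 9.64 and 4.86% in naive KO. In lung it made 38.4, 50.8, 54.8 and 53.7% in WT and 9.37, 9.82, 7.66 and 7.74% in KO. Under IL-15 it made 4.95, 1.99, 2.90 and 3.98% in WT and 7.55, 6.96, 6.97 and 7.61% in KO. WT and KO did not overlap in any of the 3 states, and in each the exact two-sided permutation test gave p = 0.0286, adjusted 0.0286, the smallest that 4 against 4 allows. A share within a library does not move with the scaling of library totals. Per kilobase of exon, since Fcgr2b is the longer transcript, the mean share was 13.5 ± 0.92% against 4.35 ± 2.61% (mean ± SD, n = 4) in naive WT and KO, 1.59 ± 0.60% against 3.42 ± 0.17% under IL-15 and 30.8 ± 6.13% against 4.10 ± 0.55% in lung.

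**Figure D3:**
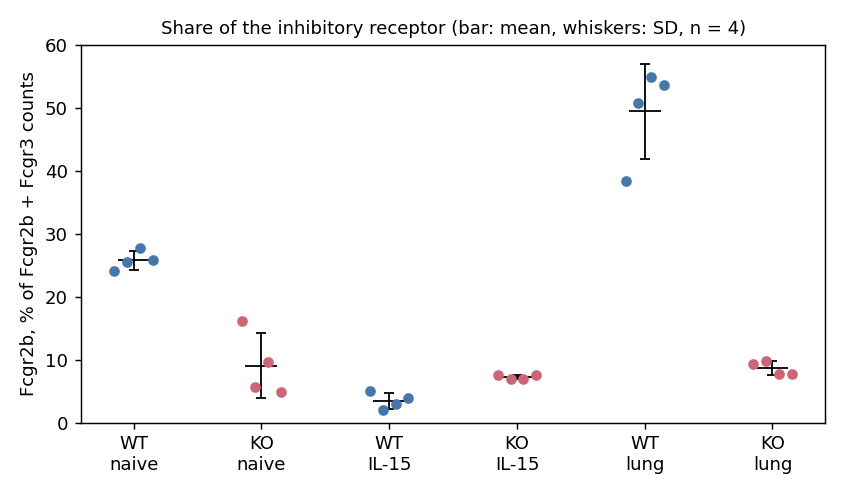
Fcgr2b as a percentage of Fcgr2b plus Fcgr3 counts in each library by group (points: libraries; bars: mean; whiskers: SD, n = 4), with WT in blue and KO in red. The naive and lung WT groups lie at 24.0% or above, while all KO libraries and the IL-15 WT libraries lie at 16.1% or below.

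The summed feature Fcgr2b plus Fcgr3 was lower in lung KO (−0.99 ± 0.11, adjusted p = 0.00135) and in naive KO (−0.62 ± 0.20, adjusted p = 0.0356), and its change was 0.10 ± 0.20 under IL-15 (adjusted p = 1.0). The naive call ended when WT naive replicate 1, 2, 3 or 4 was left out (−0.65 to −0.56, adjusted p = 0.055 to 0.0815). Without KO naive replicate 1, the library with little Fcgr3, the naive change was −0.39.

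Fcgr1 and Fcgr4, the receptors of myeloid cells, were at or near 0 in spleen NK cells and low in lung. Fcgr1 had 0 counts in 15 of 16 spleen libraries, and the exception was WT naive replicate 4 with 4 counts (0.13 CPM). A count of 0 over a group allows up to 3 counts, or 0.0352 CPM in naive KO, 0.0245 CPM in IL-15 WT and 0.0243 CPM in IL-15 KO, a limit that covers counting error only. In lung, WT libraries held 0.71, 0.76, 0.12 and 0.65 CPM of Fcgr1 and KO libraries 0.12, 1.21, 1.70 and 0.92 CPM, from 3 to 39 counts a library. The lowest library of each group was about equal, and the ranges overlapped. The KO effect in lung was 0.84 ± 0.77 (adjusted p = 0.708). In naive spleen an exact permutation test gave p = 1.0, an outcome that is fixed when a single library holds all counts. Pooled over the group, lung WT held at least 21.5-fold more Fcgr1 than IL-15 WT, and lung KO at least 40.0-fold more than IL-15 KO and at least 27.6-fold more than naive KO. These bounds allow for counting error in the group at 0 only. They do not cover the spread among lung libraries, of which the lowest lay well under the pooled level. Against naive WT, lung WT was higher by 3.78 ± 1.26 (adjusted p = 0.0204), a change that did not pass without WT naive replicate 1, 2 or 3 (3.43 to 3.46, adjusted p = 0.0551 to 0.0558).

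Fcgr4 had too few counts for the edgeR fits in every comparison. It was at 0 in all 4 naive KO libraries, at 0.12, 0, 0 and 0.30 CPM in naive WT, at 0.03, 0, 0 and 0 CPM in IL-15 WT and at 0, 0.19, 0.09 and 0.29 CPM in IL-15 KO. Lung WT libraries held 0.82, 0.34, 0.08 and 0.31 CPM and lung KO libraries 0.40, 4.23, 0.35 and 0.92 CPM. One library, lung KO replicate 2, held 105 of the 145 counts of its group. Exact two-sided permutation tests gave p = 0.171 in lung, 0.143 under IL-15 and 0.429 in naive spleen, unadjusted over 4 tests with that of Fcgr1. In naive spleen counts lay in so few libraries, all of them WT, that no smaller p was possible. Lung KO held at least 42.5-fold more Fcgr4 than naive KO, pooled over the group, and at least 15.8-fold more without lung KO replicate 2.

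**Figure D4:**
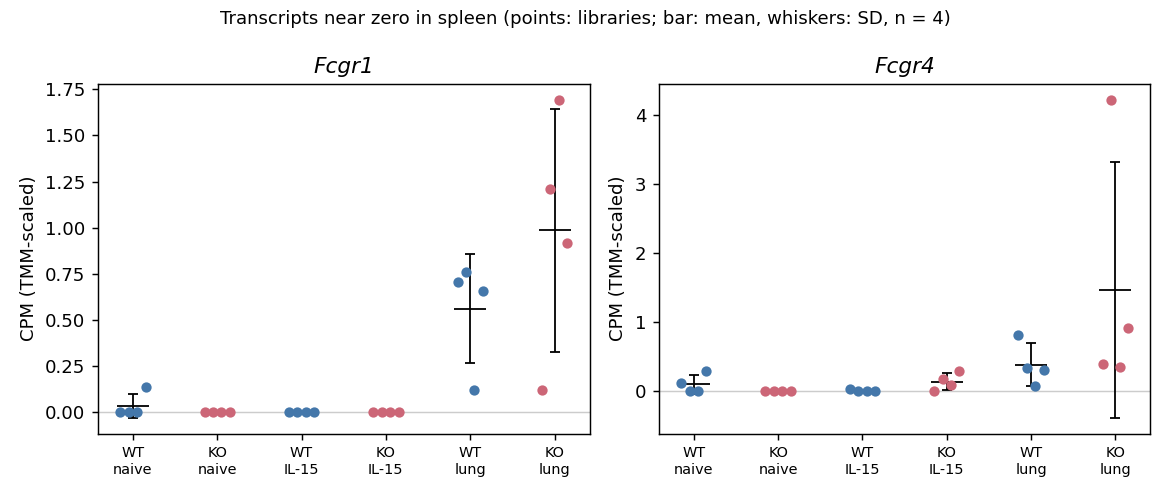
CPM (linear axis) of Fcgr1 and Fcgr4 in the 24 libraries by group, with WT in blue and KO in red (points: libraries; bars: mean; whiskers: SD, n = 4; a whisker may pass below 0, which no level can). Fcgr1 is at 0 in all but 1 spleen library and reaches 1.70 CPM in lung, and Fcgr4 has 1 library at 4.23 CPM.

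Markers of myeloid cells were also higher in lung than in spleen, though not every marker nor every library followed both genes. Of the 15 macrophage and monocyte markers, 10 averaged at least 1 CPM in lung WT and 13 in lung KO, against 1 or 2 in each spleen group. C1qc, Marco, Siglec1 and Msr1 were at 0 in all naive WT libraries, Marco and Msr1 in all naive KO libraries, 7 of the 15 in IL-15 WT and 5 in IL-15 KO, and none in either lung group. Lung KO replicate 2 had the highest marker sum (796 CPM) and the highest Fcgr4, lung KO replicate 3 (435 CPM) the highest Fcgr1. Lung WT replicate 3 had the lowest sum of the 8 lung libraries (81.8 CPM) and the lowest Fcgr1 and Fcgr4. Other values ran otherwise: lung KO replicate 1 held a larger sum (202 CPM) than any WT library but 0.12 CPM of Fcgr1, and lung KO replicate 3 held 0.35 CPM of Fcgr4. Cd68 averaged 20.1 and 24.0 CPM in IL-15 WT and KO, where Fcgr1 was at 0, against 5.01 and 9.47 CPM in lung WT and KO. Lyz2, the most abundant of the markers, averaged 94.9 CPM in lung WT and 313 CPM in lung KO. The part of these markers in the levels of Fcgr1 and Fcgr4 was not tested.

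**Figure D5:**
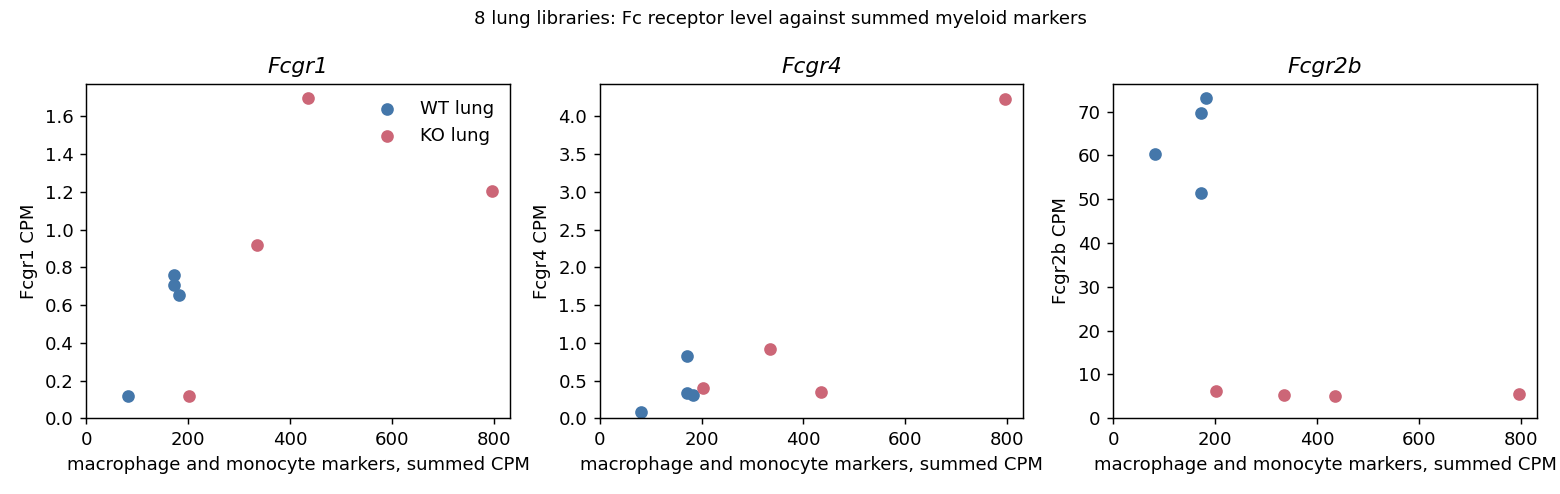
CPM of Fcgr1, Fcgr4 and Fcgr2b in the 8 lung libraries against the summed CPM of 15 macrophage and monocyte markers (linear axes from 0; WT in blue, KO in red). Marker sums run from 81.8 to 182 CPM in WT and 202 to 796 CPM in KO, the library with the highest sum has the highest Fcgr4, and Fcgr2b is low in all 4 KO libraries.

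Fcrl6 was higher in KO cells in all 3 states, by nearly the same factor. Naive WT libraries held 3.38, 2.77, 3.27 and 2.11 CPM and naive KO libraries 3.76, 9.31, 9.53 and 8.97 CPM. KO naive replicate 1 lay just above the WT range, and the other 3 well above it. Under IL-15, WT libraries held 4.01, 3.83, 4.87 and 3.64 CPM and KO libraries 8.74, 13.1, 12.2 and 11.5 CPM. In lung they held 2.35, 3.54, 3.72 and 3.04 CPM in WT and 7.90, 8.33, 8.26 and 10.8 CPM in KO. WT and KO did not overlap in any state.

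The KO effect on Fcrl6 was 1.45 ± 0.27 in naive spleen (adjusted p = 0.00155), 1.46 ± 0.27 under IL-15 (adjusted p = 0.023) and 1.46 ± 0.22 in lung (adjusted p = 0.00856). Higher calls made up 11.1, 0.0824 and 0.305% of tested genes in these comparisons. The KO means were 274, 278 and 279% of the WT means. The differences of the KO effect between states were 0.02 ± 0.38 (IL-15 minus naive), −0.01 ± 0.34 (lung minus naive) and −0.01 ± 0.36 (lung minus IL-15), with adjusted p values from 0.993 to 1.0. With these standard errors, a difference of their size between states could not be told from 0. The IL-15 call was kept without KO IL-15 replicate 1 and ended without any other of the 8 libraries (1.39 to 1.55, adjusted p = 0.054 to 0.13). The lung call ended without KO lung replicate 4 (1.35, adjusted p = 0.0588). Without KO naive replicate 1 the naive effect was 1.67.

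Between states Fcrl6 was not called in either genotype. IL-15 against naive was 0.42 in WT and 0.44 in KO (adjusted p = 0.201 and 0.19), lung against naive spleen 0.15 in both (adjusted p = 0.651 and 0.659), and lung against IL-15 spleen −0.35 and −0.36 (adjusted p = 0.274 and 0.236). The highest group mean was 1.42 times the lowest among WT groups and 1.44 times among KO groups. In order of group mean the gene rose from WT naive (2.88 ± 0.58 CPM) over WT lung (3.16 ± 0.61), WT IL-15 (4.09 ± 0.54), KO naive (7.89 ± 2.77) and KO lung (8.83 ± 1.35) to KO IL-15 (11.4 ± 1.86). Each neighbouring pair overlapped, that of WT IL-15 and KO naive through KO naive replicate 1 at 3.76 CPM.

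Per kilobase of exon, Fcgr3 was the most abundant of the 5 transcripts in every group, from 34.2 ± 3.57 CPM per kb in lung KO to 63.6 ± 8.14 in IL-15 KO. Fcgr2b followed in WT lung (16.5 ± 2.52 CPM per kb) and WT naive (7.49 ± 0.55), and in KO naive and KO lung it lay at 1.495 ± 0.39 and 1.45 ± 0.13. Fcrl6 ran from 1.08 ± 0.22 CPM per kb in naive WT to 4.24 ± 0.70 in IL-15 KO, and its mean stood above that of Fcgr2b in the 3 KO groups and in IL-15 WT. The group means of Fcgr1 and Fcgr4 were at most 0.38 and 1.17 CPM per kb.

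Genes that carry or brake the signal of these receptors were followed as lists, which also hold some genes that serve other receptors. No ITAM adaptor or partner was called between genotypes by edgeR: of 6 tested in spleen 1 had an unadjusted p under 0.05 in naive cells and 0 under IL-15, and of 7 in lung 1 had. DESeq2 called 0, 0 and 1 of them and voom 1, 0 and 0. The median change of those tested was −0.21, −0.10 and −0.04 in naive, IL-15 and lung KO, against medians of −0.0010, −0.0070 and 0.0020 over all genes. CD3ζ (Cd247), another ITAM adaptor, changed by −0.18 ± 0.14 in naive KO, 0.05 ± 0.14 under IL-15 and −0.07 ± 0.13 in lung. In WT cells, 5 of these 6 genes fell under IL-15, where 26.0% of all tested genes fell, among them Ncr1 (NKp46, −1.63 ± 0.12), Tyrobp (DAP12, −1.77 ± 0.14) and Cd247 (−1.20 ± 0.14). In KO cells 5 of 6 also fell, where 41.7% of all genes were called in either direction. These 5 included Ncr1 (−1.48 ± 0.12), Tyrobp (−1.69 ± 0.14) and Hcst (DAP10, −1.65 ± 0.22). The change of Fcgr3 from naive to IL-15 was 0.27 in WT and 0.61 in KO.

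Of the 23 tested kinases, adaptors and enzymes of the activating signal, 3 rose and 0 fell in naive KO, against 11.1% of all tested genes that rose and 9.22% that fell, so the count of 3 lay near the background. They were Syk (0.70 ± 0.14, adjusted p = 0.00266), the PI3-kinase subunit gene Pik3cd (0.60 ± 0.14, adjusted p = 0.00694) and the phospholipase gene Plcg2 (0.45 ± 0.13, adjusted p = 0.0208). The Plcg2 call ended without WT naive replicate 2 (0.41, adjusted p = 0.0642) or 3 (0.34, adjusted p = 0.0832). The median change of the list was 0.14, against −0.0010 over all genes. In lung 1 of 24 rose: Sh2d1b1 (EAT-2, an adaptor of SLAM family receptors) by 0.78 ± 0.11 (adjusted p = 0.00646), from 41.6 ± 4.81 CPM in WT to 71.2 ± 5.55 CPM in KO. Its KO effect in lung exceeded that in naive spleen by 0.95 ± 0.15 (adjusted p = 0.00401). Under IL-15 edgeR called none of the 23, none had an unadjusted p under 0.05, and DESeq2 and voom called none either.

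Of the 11 inhibitory enzymes and adaptors, 2 were called in naive KO, a share near the 20.3% of all tested genes. Ptpn11 (SHP-2) rose by 0.42 ± 0.11 (adjusted p = 0.0136) and the adaptor Dok2 fell (−0.36 ± 0.12, adjusted p = 0.0367). The Ptpn11 call ended without WT naive replicate 3 (0.35, adjusted p = 0.0604), and that of Dok2 without WT naive replicate 1, 2 or 4 or KO naive replicate 2, 3 or 4 (adjusted p = 0.0522 to 0.0989). Dok2 also did not pass with DESeq2 size factors (adjusted p = 0.0592) or with the compared groups alone (adjusted p = 0.0814). In IL-15 and lung cells edgeR called none of the 11. Unadjusted p values under 0.05 were held by 0 and 2 of them, and DESeq2 and voom called none. SHIP1 (Inpp5d), the phosphatase that Fcgr2b recruits, changed by 0.14 ± 0.13, 0.13 ± 0.13 and 0.10 ± 0.15 in naive, IL-15 and lung KO, with adjusted p values of 0.493, 1.0 and 0.824. Of the 13 other Fc receptors and relatives, 6 were tested in spleen and 8 in lung, and edgeR called none between genotypes. Of those tested, 1, 1 and 2 had an unadjusted p under 0.05 in naive, IL-15 and lung cells, DESeq2 called 0, 0 and 1, and voom called 1, 0 and 0. Their median changes were 0.56, −0.08 and 0.49, and those of the inhibitory genes 0.10, 0.10 and 0.06.

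Other genes lie near the members on chromosome 1, and 2 of them, chosen after their values were seen, separated the genotypes in every state. Dusp23, a phosphatase gene 34.1 kb from Fcrl6 (between their lower coordinates), held 5.32 to 7.38 CPM in naive WT and 0 to 3.66 CPM in naive KO. It held 6.65 to 12.1 CPM against 2.33 to 3.15 CPM under IL-15, and 6.65 to 16.7 CPM against 2.29 to 3.03 CPM in lung. The KO effects were −1.60 ± 0.50 (adjusted p = 0.0317), −1.59 ± 0.49 (adjusted p = 1.0) and −1.93 ± 0.29 (adjusted p = 0.00785), so that the gene moved opposite to Fcrl6. The naive call ended without WT naive replicate 1 or 3 or KO naive replicate 3 (adjusted p = 0.0626 to 0.069) and also with the compared groups alone (adjusted p = 0.108). The lung call ended without KO lung replicate 2 (adjusted p = 0.0517). Under IL-15, voom (−1.38, adjusted p = 0.00305) and the compared groups alone (−1.59, adjusted p = 0.0146) did call Dusp23. Itln1, an intelectin gene 466.9 kb from Fcgr3, held 0 CPM in all naive WT libraries and at most 0.09 and 0.40 CPM in IL-15 and lung WT. KO libraries held 0.55 to 2.38, 7.14 to 17.5 and 39.0 to 42.0 CPM of it. Within 0.5 Mb of Fcgr2b (again by lower coordinates), 2 of 19 other tested protein-coding genes rose and 2 fell in naive KO. Near Fcgr3, and likewise near Fcgr4, 3 of 21 rose and 3 fell, near Fcrl6 0 of 10 rose and 2 fell, and near Fcgr1 0 of 29 rose and 1 fell. The stretches around Fcgr2b, Fcgr3 and Fcgr4 overlap, so their counts are not separate: Pfdn2, Nit1, Pcp4l1 and Arhgap30 were counted in each. Fcer1g and the members themselves were left out of these counts. Over all tested genes 11.1% rose and 9.22% fell in naive KO. In lung KO, where 0.305% rose and 0.320% fell over all, 1 of 9 fell near Fcrl6 and 2 of 21 rose near Fcgr3, and under IL-15 1 of 21 rose near Fcgr3. Whether position bears on the levels of the members was not tested.

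As a description, the genes whose log2 CPM followed each member most closely over the 24 libraries were listed among 11762 genes with a mean of at least 1 CPM. The libraries fall into 6 groups, so these values largely rest on group means, and depth is shared. For Fcgr2b they were Ubqln1 (Pearson r = 0.915), Ahsa1 (0.908), St13 (0.887), Gm7816 (0.884) and Plod1 (0.875). Ahsa1 and St13 encode co-chaperones of HSP90 and HSP70. For Fcgr3 they were Nono (0.944), Pus10 (0.919), Gm16580 (0.918), Strbp (0.915) and Eri2 (0.913). For Fcrl6 they were Gm14434 (0.881), Prrc1 (0.874), Gm8898 (0.870), Gm8923 (0.865) and Gm4724 (0.845), and the 4 predicted genes of these 5 lie on chromosome 2. None of the 15 lies on chromosome 1.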

How the data were processed

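Poly(A) RNA of NK cells was sequenced in 24 libraries, 6 groups of 4, taken from the labels. The deposited values are expected counts per gene from RSEM, not scaled to a library total. The submitters' processing notes name GRCm38, RSEM 1.2.30, STAR 2.5.2a and cutadapt 1.9, and the sources used here give neither annotation release nor strand setting. RSEM divides reads that match several genes between them, and 5.47% of the expected counts deposited by the authors held a fraction.

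After rounding, counts were fitted with the quasi-likelihood F test of edgeR 4.0.16 in R 4.3.3, with TMM scaling and the filterByExpr filter: the 16 spleen libraries together, the 8 lung libraries together, and all 24 across tissues, for 12 comparisons. The standard error is the log2 change over the square root of F, and adjustment is Benjamini-Hochberg within a comparison. Levels are in CPM of the TMM-scaled library totals, which held 9.68 to 32.1 M counts before scaling, and log2 CPM for likeness used a prior count of 2. Genes under the filter and the Fcgr2b share got exact permutation tests. Where a group had 0 counts, folds are bounds computed with 3 counts pooled over that group. They do not allow for the spread among libraries of the higher group. The scripts were tested on simulated data.

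The members, lists and tests were chosen with earlier results of these data known. Named genes are the 5 members, Fcer1g, up to 3 called genes per list and comparison by smallest p (of which those in the KO comparisons, and some of those in IL-15 against naive, are printed), and the 5 genes most like each tested member. Lists covered other Fc receptors, ITAM adaptors, activating and inhibitory signal genes, and markers of NK, myeloid (macrophage and neutrophil), B, T, dendritic and mast cells. Fcmr stands under an older symbol and was matched by gene ID. Sequences came from GENCODE M21 on GRCm38. Alternatives were DESeq2 1.42.0, its size factors, limma 3.58.1 voom with library weights, no filter or a stricter one, other sets of libraries in the fit, blocks by replicate or library number, and each library left out. No library was left out of the main results.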

Additional observations from a re-analysis of the deposited data

Results flagged for a closer look

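In groups of 4 libraries, 1 library stood far from the other 3 for 6 of 26 combinations of gene and group with any spread. For normally spread values the rule marks about 1 in 20. It always marks a group with 3 libraries at 0 and 1 above, as for Fcgr1 in naive WT and Fcgr4 in IL-15 WT. The 2 rates can therefore not be compared directly. Fcrl6 was low in KO naive replicate 1 (3.76 CPM, the other 3 from 8.97 to 9.53) and high in KO lung replicate 4 (10.8 CPM, the other 3 from 7.90 to 8.33). Fcgr4 was high in KO lung replicate 2 (4.23 CPM), the library with the highest myeloid marker sum, and present in 1 IL-15 WT library (0.03 CPM, from 1 count). Fcgr1 was low in WT lung replicate 3 (0.12 CPM), the lung library with the lowest myeloid marker sum, and present in 1 naive WT library (0.13 CPM, from 4 counts).

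The KO effect on Fcgr2b differed between all 3 pairs of states, by 3.50 from naive to IL-15, −1.19 from naive to lung and −4.67 from IL-15 to lung, each tested as an interaction in edgeR (adjusted p = 9.91e-05, 0.0467 and 6.25e-10). The KO effect on Sh2d1b1 was higher in lung than in naive spleen by 0.95 (adjusted p = 0.00401).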

How the results depend on the processing

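Alternatives are tallied here for the members, the sum and share of Fcgr2b and Fcgr3, Fcer1g, Dusp23, Itln1 and the list genes named by smallest p. Other tested list genes are not in this tally, so it is not a rate over all tests. Within it, 910 of 943 values under another tool, scaling, filter or set of libraries kept their direction and their side of the threshold. The same held for 1067 of 1183 values with 1 library left out. The KO effects on Fcgr2b in naive spleen and lung and on Fcrl6 in naive spleen were among those kept throughout. The cause of the changes below was not tested. The KO effect on Fcgr2b under IL-15 passed with DESeq2 (1.16), voom (0.97) and all 24 libraries (1.16). Fcgr2b in KO cells, IL-15 against naive, passed with voom (0.67) and all 24 libraries (0.59), and lung against naive spleen turned with voom (0.11). With voom, Fcgr3 passed for IL-15 against naive in WT (0.30) and for lung against naive in WT (−0.43) and KO (−0.38), and with the compared groups alone for lung against naive in WT (−0.39), while IL-15 against naive in KO was lost (0.64). Fcrl6 in KO cells passed for lung against IL-15 (−0.41) and turned for lung against naive (−0.0062) with voom. The Fcgr2b difference lung minus naive was lost without a filter (−1.13, adjusted p = 0.0543). Differences of the KO effect on Fcrl6 crossed 0: IL-15 minus naive with DESeq2 (−0.0036) and voom (−0.088), lung minus naive without a filter (0.055) and with the compared groups alone (0.013), and lung minus IL-15 without a filter (0.0005).

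Replicate numbers in the titles did not pair libraries: correlations of same-numbered libraries between WT and KO ran from −0.19 to 0.247. With a replicate block the Fcrl6 effect under IL-15 (1.45, adjusted p = 0.0533) and the Fcgr2b difference lung minus naive (−1.19, adjusted p = 0.0624) did not pass, and the Fcrl6 differences lung minus naive (0.075) and lung minus IL-15 (0.032) turned, while no other member lost or gained a call.

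With 1 library left out, the ranges of results that changed call or sign were as follows. The Fcgr2b changes ran from 0.42 to 0.73 for IL-15 against naive in KO, −0.15 to 0.16 for lung against naive in KO, −0.71 to −0.56 for lung against IL-15 in KO and −1.29 to −0.99 for the difference lung minus naive. Fcgr3 ran from −0.0084 to 0.13 for KO under IL-15, 0.37 to 0.76 for IL-15 against naive in KO, −0.44 to −0.068 for lung against naive in KO and −0.10 to 0.28 for the difference lung minus naive. Fcrl6 ran from 1.39 to 1.57 for KO under IL-15, 1.35 to 1.55 for KO in lung, −0.070 to 0.25 for lung against naive in KO, −0.21 to 0.14 for the difference IL-15 minus naive, −0.23 to 0.12 for lung minus naive and −0.12 to 0.074 for lung minus IL-15. Fcgr1 ran from 3.43 to 6.83 for lung against naive in WT, and the naive KO effect on Fcgr2b plus Fcgr3 from −0.74 to −0.39. The Fcgr2b share, in percentage points KO minus WT, ran from −19.0 to −15.3 in naive, 3.33 to 4.32 under IL-15 and −44.4 to −39.0 in lung, with the exact p at 0.0571, the smallest that 3 against 4 allows.

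Counts of called genes, which give the background shares, moved more: 2705 in naive KO against 1697 to 3361 over alternatives, 18 under IL-15 against 14 to 54, and 82 in lung against 41 to 448, the last without WT lung replicate 1. The differences of the KO effect called 205 genes (IL-15 minus naive, 83 to 1320), 164 (lung minus naive, 71 to 570) and 13 (lung minus IL-15, 7 to 65). Of the activating signal genes in naive KO, DESeq2 called 6 and voom 4, against 3. Fcgr1 and Fcgr4 are limited by depth, with at most 105 counts in a library. The bounds for Fcgr1 and Fcgr4 with 1 library left out were added after the data were seen.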
